A study of Mus musculus with 24 samples.

Results

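The genes of the LIF, STAT3, BMP and Id pathways, which hold mouse embryonic stem cells in the undifferentiated state, were followed across 24 arrays of huntingtin-mutant and control cells. The members were 9 of the 18193 genes on the arrays: Lifr and Il6st (the receptor chains for LIF), Stat3 and Socs3, Bmp4 and Bmpr1a, and Id1, Id2 and Id3. Every probe set that GEO's platform annotation gives to 1 of these genes alone was taken, which made 26 of the 34945 probe sets with a single gene. Of these 26, 21 reached a log2 value of 5 on at least 3 of the 24 arrays and were tested, and 5 did not.

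Total RNA came from undifferentiated 129/Sv embryonic stem cells, hybridised to 1-colour Affymetrix mouse expression arrays, 1 sample per array. The huntingtin gene (Htt, called Hdh in the labels) was knocked out in 6 samples. Knock-in cells, 3 samples each of Q20, Q50, Q91 and Q111, carried an expanded CAG tract in 1 Hdh allele, with 16, 45 (43 in Q50 replicate 3), 85 and 111 repeats, beside a second allele of 7 repeats. The 6 control samples had 7 repeats in both alleles. Each knock-in group is 1 line, so its genotype and the line itself cannot be told apart. The sources used here do not say how many clones the knock-out comes from, whether the numbered biological replicates were separate cultures, or whether the cells grew on feeder cells, so p-values measure the spread between these arrays. All 5 comparisons with control share the same 6 control arrays.

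LIF binds the LIF receptor (Lifr) and gp130 (Il6st), and the receptor-bound JAK kinases phosphorylate STAT3, which enters the nucleus and raises pluripotency genes as well as its own feedback inhibitor Socs3. BMP4 binds a receptor complex with BMPR1A, which signals through SMAD proteins to raise the Id genes. Id proteins bind E-proteins of the basic helix-loop-helix class and keep them off DNA, and in mouse embryonic stem cells LIF and BMP4 together are known to hold back differentiation.

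The promoters of Socs3 and Id2 are shown because these genes carried the changes seen in all 4 knock-in lines. Each line below gives the 250 bases before the transcription start from RefSeq, build GRCm38.p6, 5′ to 3′ on the gene's strand. Capitals mark TTCNNNGAA, the spaced palindrome that STAT proteins bind, and GGCGCC, a motif of SMAD1 and SMAD5 binding. Both motifs read the same on either strand, and the marked matches do not overlap.
Socs3 chr11:117969367-117969616 minus strand: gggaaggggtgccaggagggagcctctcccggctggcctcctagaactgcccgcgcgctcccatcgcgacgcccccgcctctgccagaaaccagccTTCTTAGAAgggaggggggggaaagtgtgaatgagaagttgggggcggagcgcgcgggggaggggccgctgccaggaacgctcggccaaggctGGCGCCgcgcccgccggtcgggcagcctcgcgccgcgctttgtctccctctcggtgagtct
Id2 chr12:25096093-25096342 minus strand: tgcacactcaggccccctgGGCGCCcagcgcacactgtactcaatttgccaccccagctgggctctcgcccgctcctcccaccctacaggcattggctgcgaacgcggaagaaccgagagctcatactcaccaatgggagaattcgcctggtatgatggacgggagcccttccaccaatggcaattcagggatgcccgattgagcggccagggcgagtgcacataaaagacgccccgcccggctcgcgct
The Socs3 window held TTCTTAGAA at 154 to 146 bases and GGCGCC at 61 to 56 bases before the start, and the Id2 window held GGCGCC at 231 to 226 bases. TTCNNNGAA occurred in 7.02% and GGCGCC in 9.59% of 32851 promoter windows of the same length. Of the 8 member genes with a promoter in the table, 1 (Socs3) held TTCNNNGAA and 4 (Lifr, Socs3, Bmpr1a and Id2) held GGCGCC. A match describes the letters of the window and says nothing of binding in these cells.

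The Htt probe set 1425969_a_at averaged 7.21 ± 0.27 in knock-out arrays (SD, n = 6), against 8.01 ± 0.29 in control arrays (SD, n = 6), a log2 change of -0.80 (SE 0.16, limma adjusted p = 0.00195). It was lower in 2 knock-in lines as well, with Q91 at 6.96 ± 0.38 and Q111 at 7.22 ± 0.32 (SD, n = 3 each) and changes of -1.05 and -0.79 (limma adjusted p = 0.000565 and 0.00445), while Q20 differed by -0.47 and Q50 by -0.61 without passing (limma adjusted p = 0.0777 and 0.0544). Whether this probe set lies in the deleted part of the gene was not tested. Array medians and the share of probe sets at 5 or more differed little between arrays, but on Q50 replicate 3 the 3′ probe set of Actb exceeded the 5′ probe set by 1.54, against 0.745 to 1.03 on the other 23 arrays. All 8 pluripotency markers listed were at 5 or more in every group. Of the fibroblast markers, 0 of 11 in knock-out, 1 in Q20, 0 in Q50, 2 in Q91, 3 in Q111 and 2 in control arrays averaged 5 or more, with Dcn, Lum and Postn under 3 in every group mean.

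Among the 21 tested member probe sets, Bmpr1a was higher in the knock-out on all 4 of its probe sets, while Id2 was higher and Socs3 lower in every knock-in line. In the knock-out Id2 passed on 1 of 2 probe sets, and that call was lost when any 1 of 6 arrays was left out. Il6st and Stat3, a receptor chain and the transcription factor itself, passed no test on the deposited values in any comparison with control. In the knock-out against control, 5 member probe sets passed the limma test (adjusted p under 0.05), all higher, where 14.6% of all 17980 tested probe sets passed (7.42% higher and 7.17% lower). Q20 had 7 (3 higher, 4 lower), where 25.2% of all passed (16.2% higher, 9% lower). Q50 had 5 (2 higher, 3 lower), where 8% passed (5.7% higher, 2.3% lower). Q91 had 7 (2 higher, 5 lower), where 22.2% passed (12.7% higher, 9.49% lower). Q111 had 7 (2 higher, 5 lower), where 25.7% passed (16.2% higher, 9.49% lower). Probe sets of 1 gene share their target, so these counts weigh Bmpr1a and Socs3 more than Bmp4 or Id1. The 5 member probe sets that were not tested came from Lifr, Stat3, Bmpr1a (a pair of them) and Id2.

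**Figure D1:**
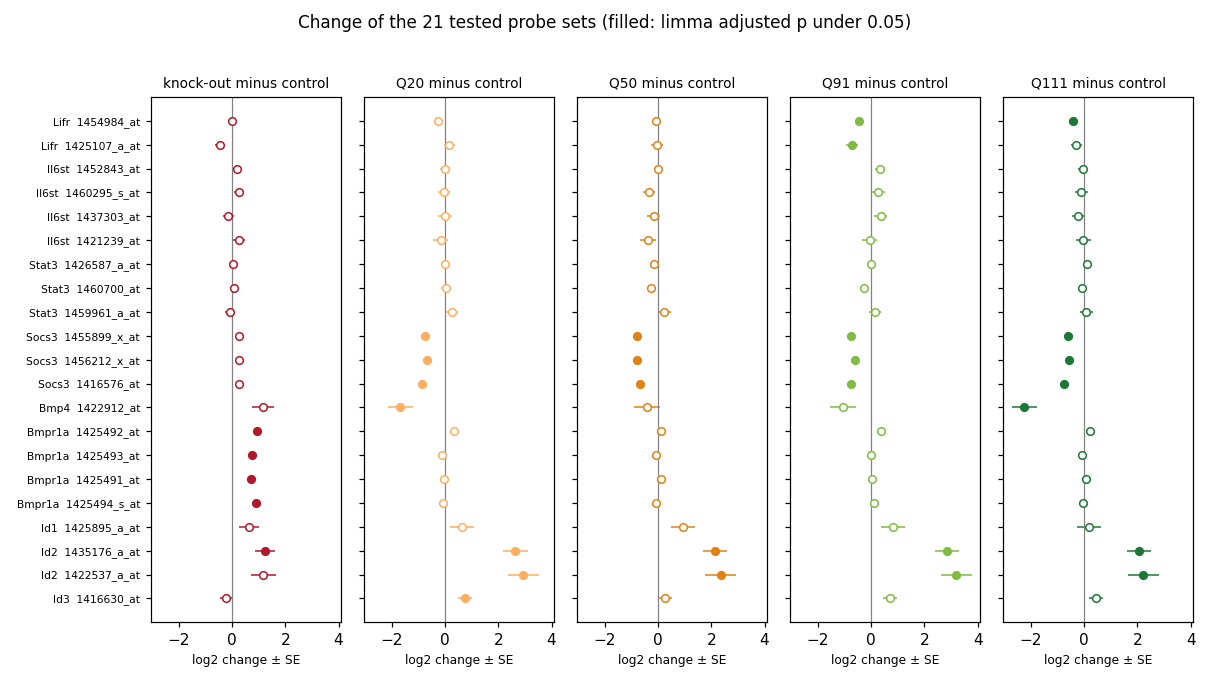
Log2 change of each of the 21 tested probe sets against control, with its SE, in 5 panels for the knock-out and the 4 knock-in lines; filled points passed the limma test at an adjusted p under 0.05. The 3 Socs3 probe sets lie left of 0 and both Id2 probe sets right of 0 in every line, and the 4 Bmpr1a probe sets are filled in the knock-out panel alone.

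**Figure D2:**
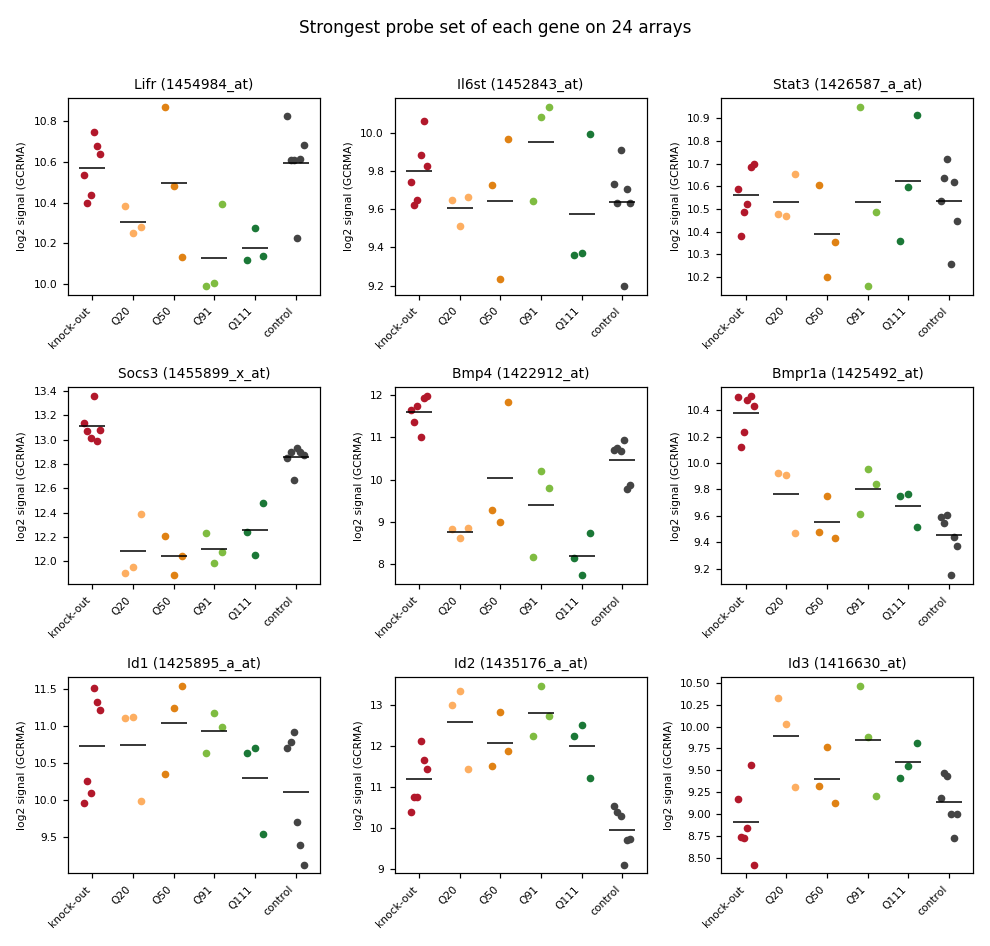
Deposited log2 signal of the probe set with the highest mean for each of the 9 genes on the 24 arrays, by group; each point is an array and each line a group mean. Socs3 arrays of the 4 lines all lie under the control arrays, Id2 arrays of the 4 lines all lie over them, and the knock-out and control points of Id1 each split into a high and a low set.

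The LIF receptor chain Lifr was measured well by 1454984_at, on which Q91 arrays had 9.99, 10.005 and 10.39, Q111 arrays 10.12, 10.27 and 10.14, and control arrays 10.23 to 10.83 with a median of 10.61. In each of these lines 2 of the 3 arrays lay below every control, and 1 overlapped control replicate 4, the lowest control. Knock-out arrays ran from 10.40 to 10.75 (median 10.59), Q20 arrays had 10.39, 10.25 and 10.28, and Q50 arrays 10.87, 10.48 and 10.14, all but 1 of them within the range of the controls or above it. Lifr fell by 0.47 in Q91 (SE 0.14, limma adjusted p = 0.0206) and fell by 0.42 in Q111 (SE 0.14, limma adjusted p = 0.032), while Q20 differed by -0.29, Q50 by -0.10 and the knock-out by -0.02 (limma adjusted p = 0.138, 0.704 and 0.926). The weaker Lifr probe set 1425107_a_at fell by 0.72 in Q91 (SE 0.22, limma adjusted p = 0.0216), with 4.70, 5.15 and 5.21 in Q91 arrays, against 5.34 to 6.07 in control arrays (median 5.73). All 3 Q91 arrays were below all controls there, as were 9.25% of all tested probe sets. On the same probe set Q111 differed by -0.30 (limma adjusted p = 0.333) and the knock-out by -0.47 (limma adjusted p = 0.0778). With control replicates 4 to 6 as the only controls, both Q91 calls and the Q111 call were lost (limma adjusted p = 0.155, 0.116 and 0.204). They were also lost without Q91 replicate 1 or 2 and, for Q111, without any Q111 array or without control replicate 1 or 6. With a replicate block in the fit, the Q91 and Q111 calls on 1454984_at were lost as well. The Lifr probe set that was not tested, 1450207_at, lay between 2.78 and 3.26 on all arrays.

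The gp130 chain Il6st, shared by the receptors of the LIF and interleukin-6 family, had 4 tested probe sets. On its strongest, 1452843_at, the group means were 9.80 ± 0.17 in knock-out, 9.61 ± 0.08 in Q20, 9.64 ± 0.37 in Q50, 9.95 ± 0.27 in Q91, 9.58 ± 0.36 in Q111 and 9.64 ± 0.24 in control arrays (SD; n = 6 for knock-out and control, 3 for each line). The arrays of the groups overlapped. Over the 4 probe sets and 5 comparisons the changes ran between -0.39 and 0.35, with no limma call.

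Stat3, the signal transducer of the pathway, had 3 tested probe sets. On 1426587_a_at knock-out arrays ran from 10.38 to 10.70 (median 10.56) and control arrays from 10.26 to 10.72 (median 10.58). The lines had 10.48, 10.47 and 10.65 (Q20), 10.61, 10.20 and 10.35 (Q50), 10.95, 10.16 and 10.49 (Q91), and 10.36, 10.60 and 10.91 (Q111). All groups overlapped, and on the 3 probe sets the changes against control ran between -0.27 and 0.26 with no limma call. The median of the genes on chromosome 11, where Stat3 and Socs3 lie, was itself above all controls on every Q20 and Q111 array, with values given beside Bmpr1a. After each array's chromosome median was subtracted, Stat3 1426587_a_at and 1460700_at were lower in Q20 (-0.45 and -0.43, limma adjusted p = 0.0131 and 0.0322) and in Q111 (-0.35 and -0.53, limma adjusted p = 0.0447 and 0.00907). The Stat3 probe set that was not tested, 1424272_at, lay between 2.26 and 2.46 on all arrays.

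Socs3, the feedback inhibitor that binds gp130 and the JAK kinases, was lower in all 4 knock-in lines on all 3 of its probe sets. On 1455899_x_at Q20 arrays had 11.90, 11.95 and 12.39, Q50 arrays 12.21, 11.88 and 12.04, Q91 arrays 12.23, 11.99 and 12.08, and Q111 arrays 12.24, 12.05 and 12.48. Knock-out arrays ran from 12.99 to 13.36 (median 13.08), and control arrays from 12.67 to 12.93 (median 12.89). Every line array lay below every control array and every knock-out array above, so that knock-out, control and line arrays did not overlap on this probe set. Non-overlap below the controls held for 10.4% of all tested probe sets in Q20, 3.32% in Q50, 9.25% in Q91 and 9.82% in Q111, and in the knock-out 5.44% lay wholly above and 5.55% wholly below them.

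The Socs3 changes on 1455899_x_at were -0.77 in Q20 (limma adjusted p = 0.000109), -0.81 in Q50 (limma adjusted p = 0.000478), -0.76 in Q91 (limma adjusted p = 0.000122) and -0.60 in Q111 (limma adjusted p = 0.000889), each with an SE of 0.12. The line means were thus 57.0% (Q50) to 66.0% (Q111) of control on the linear scale. The probe set 1416576_at gave -0.87, -0.67, -0.78 and -0.76 in Q20, Q50, Q91 and Q111 (limma adjusted p = 0.000108, 0.00386, 0.000269 and 0.000274). On 1456212_x_at the changes were -0.69, -0.81, -0.63 and -0.57 (limma adjusted p = 0.000556, 0.000859, 0.00128 and 0.00242). The suffix of the x_at probe sets marks probes that can bind other transcripts, while 1416576_at has no such mark. All 12 Socs3 calls in the lines held under every alternative and every left-out array. With the chromosome 11 median subtracted, Socs3 on 1416576_at fell by 1.31 in Q20 and fell by 1.20 in Q111 (limma adjusted p = 8.62e-07 and 6.1e-07).

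In the knock-out, Socs3 differed from control by 0.25, 0.26 and 0.24 on the 3 probe sets, and none passed (limma adjusted p = 0.0788, 0.0998 and 0.143). A fit of the knock-out and control arrays alone called 1455899_x_at and 1416576_at (limma adjusted p = 0.0299 and 0.0231), and subtraction of the chromosome 11 median gave 0.47, 0.47 and 0.45, all past the threshold (limma adjusted p = 0.00557, 0.00877 and 0.00308). By group mean the order on 1455899_x_at was knock-out, control, Q111, Q91, Q20 and Q50. Of the neighbours in that order, control and Q111 differed in the limma fit (adjusted p = 0.000889), and the other 4 neighbouring pairs were not past the threshold. Set directly against the lines, with no control array in the difference, the knock-out was higher by 1.03 than Q20, 1.07 than Q50, 1.01 than Q91 and 0.85 than Q111 on this probe set (limma adjusted p = 1.67e-06, 5.93e-06, 2.33e-06 and 1.23e-05). For Q20, Q50, Q91 and Q111 these direct comparisons called 12, 8, 12 and 9 of the 21 member probe sets, beside 36.6%, 20.7%, 32.4% and 36.9% of all tested probe sets.

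Known STAT3 targets of embryonic stem cells, 10 genes other than Socs3 and all tested, were lower in part in each line; the list was chosen with earlier results of these data known. In Q20 6 of 10 were lower and 0 higher (median change -0.74, beside 0.01 over all 9504 genes, of which 10.4% were lower and 16.3% higher). In Q50 3 of 10 were lower (median -0.27; 2.42% of all genes), in Q91 3 of 10 (median -0.32; 11.3% of all genes) and in Q111 5 of 10 (median -0.57; 11.1% of all genes), with 0 higher in each. The median over all genes lay between -0.01 and 0.03 there. With control replicates 1 to 3 or 4 to 6 alone, 1 of 10 was lower in Q50, and 4 of 10 were lower without Q50 replicate 3. In the knock-out 2 of 10 were higher and 0 lower (median 0.23, beside -0.02 over all genes, of which 7.55% were higher). With replicates 1 to 3 alone the knock-out had 3 higher and 2 lower, and with replicates 4 to 6 alone 2 higher and 0 lower.

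Klf4, a pluripotency transcription factor, averaged 11.52 ± 0.33 in Q20, 11.66 ± 0.45 in Q50, 11.38 ± 0.19 in Q91 and 11.51 ± 0.35 in Q111 arrays (SD, n = 3 each), with 13.34 ± 0.17 in knock-out and 12.75 ± 0.12 in control arrays (SD, n = 6 each). Klf4 thus changed by -1.23, -1.09, -1.38 and -1.25 in Q20, Q50, Q91 and Q111, and rose by 0.58 in the knock-out (limma adjusted p = 6.64e-05, 0.00101, 1.6e-05, 4.54e-05 and 0.00928). Tfcp2l1, a transcription factor that can stand in for STAT3 in self-renewal, changed by -1.93, -1.05, -1.72 and -1.96 in the same lines (limma adjusted p = 0.000241, 0.046, 0.000618 and 0.00017). Bcl3, a nuclear partner of NF-kappaB, changed by -1.35, -0.58, -0.71 and -1.30 in the lines and rose by 0.45 in the knock-out (limma adjusted p = 2.46e-05, 0.0426, 0.00535, 2.59e-05 and 0.0376). Gbx2, a homeobox factor, fell by 2.15 in Q20 and by 2.66 in Q111 (limma adjusted p = 0.00141 and 0.000192). Pim1, Myc, Junb and Sall4 passed the test in none of the 5 comparisons.

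**Figure D3:**
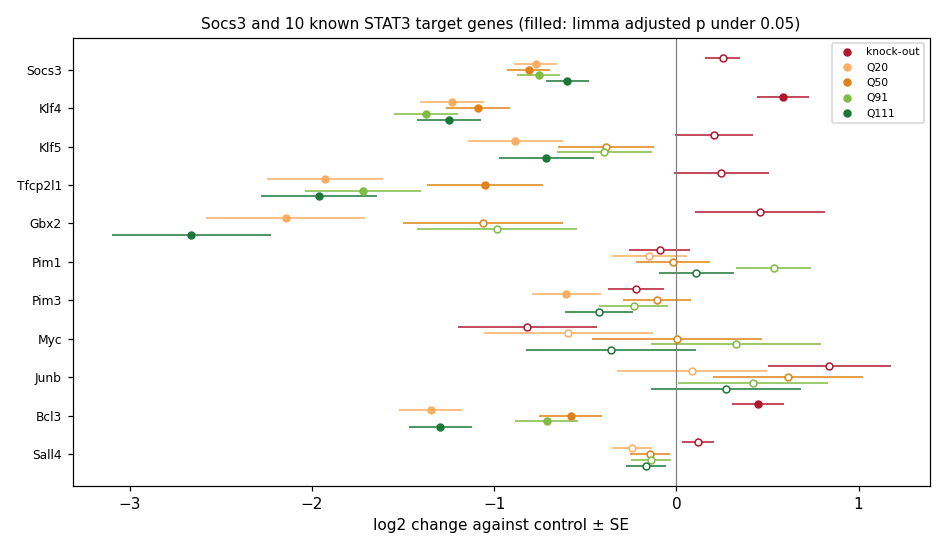
Log2 change against control, with its SE, of Socs3 (1455899_x_at) and 10 known STAT3 targets in the knock-out and the 4 knock-in lines; filled points passed the limma test at an adjusted p under 0.05. Socs3, Klf4, Tfcp2l1 and Bcl3 are filled and left of 0 in all 4 lines, and Klf4 and Bcl3 are filled and right of 0 in the knock-out.

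Pluripotency markers moved beside these genes. Of 8 markers, 4 were lower in Q20, 0 in Q50, 5 in Q91 and 4 in Q111 with 0 higher, and 1 (Tdgf1) was higher in the knock-out. Of all 9504 genes, 10.4%, 2.42%, 11.3% and 11.1% were lower in these lines, and 7.55% were higher in the knock-out. Esrrb, a pluripotency transcription factor, changed by -1.37, -0.50, -1.40 and -1.24 in Q20, Q50, Q91 and Q111 (limma adjusted p = 0.000202, 0.168, 0.000145 and 0.000386). The summed linear signal of the 8 markers was lowest in Q91 (126695 to 153671), Q20 (128736 to 156701) and Q111 (133087 to 166333). It was 156982 to 175338 in Q50 and 167628 to 177396 in knock-out arrays, against 161593 to 174893 in control arrays. Dppa5a, with group means of 15.11 to 15.57, weighed most in this sum, and Esrrb, at 10.80 to 12.25, weighed little. In the other direction the fibroblast marker Col1a1 rose by 4.25 in Q20, 3.74 in Q91 and 4.67 in Q111 (limma adjusted p = 3.8e-05, 9.55e-05 and 1.1e-05). It lies on chromosome 11, whose median was 0.45 and 0.44 above control in Q20 and Q111. Col1a2, on chromosome 6, rose by 1.33 in Q91 and 2.40 in Q111 (limma adjusted p = 0.0257 and 0.000307). Its mean reached 5 in Q111 alone (5.08 ± 1.42, SD, n = 3) and was 2.68 in control arrays. Col1a1 averaged 3.56 to 4.02 in knock-out, control and Q50 arrays, also under 5. Both genes thus reached the level for testing through lines in which they were high. Of 4 tested fibroblast markers, 1 was higher in Q20 and 2 each in Q91 and Q111. The remaining tested markers went the other way without passing. Thy1 changed by -1.31, -0.87 and -0.625 in Q20, Q91 and Q111 (limma adjusted p = 0.131, 0.35 and 0.499). Pdgfrb changed by -0.36, -0.84 and -0.27 there (limma adjusted p = 0.481, 0.085 and 0.609). Eomes, the 1 mesoderm marker tested, rose by 1.06, 1.14 and 1.62 in Q20, Q91 and Q111 (limma adjusted p = 0.0155, 0.0111 and 0.000662). Neuroectoderm markers passed in both directions. Of 5 tested, Q20 had 1 higher and 1 lower, Q50 0 and 0, Q91 1 and 1, Q111 2 and 1, and the knock-out 0 and 1 (Tubb3). Of all genes, 16.3% were higher and 10.4% lower in Q20, and 5.08% and 2.42% in Q50. The shares were 13.3% and 11.3% in Q91, 16.4% and 11.1% in Q111, and 7.55% and 8.81% in the knock-out. Nes rose by 2.80, 3.28 and 3.31 in Q20, Q91 and Q111 (limma adjusted p = 0.000803, 0.000189 and 0.000159), and Sox1 changed by -2.25, -1.94 and -1.96 in the same lines (limma adjusted p = 0.00302, 0.00904 and 0.00741). Nes averaged 3.91 in control and 3.07 in knock-out arrays, and Sox1 3.50 to 4.37 in the lines, all under 5. Nes thus reached the level for testing through the lines, and Sox1 through knock-out and control arrays. The summed signal of the 11 fibroblast markers was highest in Q111 (364.2 to 676.6), Q20 (194.6 to 639.9) and Q91 (152.9 to 564.2). It was 103.5 to 137.2 in knock-out and 110.4 to 128.1 in Q50 arrays, against 127.3 to 235.3 in control arrays. Col1a1, with group means of 7.98 in Q20, 7.48 in Q91 and 8.40 in Q111, weighed most in the sums of these lines. In the knock-out 1 fibroblast marker, Thy1, fell by 2.66 (limma adjusted p = 0.00154). In bulk RNA, fewer cells of a type and less RNA per cell cannot be told apart, and the part of these markers in the Socs3, Bmp4 and Id2 differences was not tested.

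The other genes of LIF and JAK-STAT signalling, 11 tested of 20 listed, passed in both directions. The knock-out had 0 higher and 1 lower (the adaptor Grb2, change -0.44, limma adjusted p = 0.0111), where 7.55% of all 9504 genes were higher and 8.81% lower, and Q50 had 0 and 0 (5.08% and 2.42%). The phosphatase Ptpn11, which carries the gp130 signal to the ERK pathway, was higher in Q20 by 0.51, in Q91 by 0.36 and in Q111 by 0.48 (limma adjusted p = 0.000438, 0.0064 and 0.000682). The JAK kinase Tyk2 fell by 0.87 in Q91 and fell by 0.56 in Q111 (limma adjusted p = 0.000272 and 0.00808). In all, Q20 had 1 higher and 0 lower (16.3% and 10.4% of all genes), Q91 2 and 1 (13.3% and 11.3%), and Q111 3 and 3 (16.4% and 11.1%). Of the 3 higher in Q111, Grb2 and Stat5b lie on chromosome 11, whose median differed by 0.44 in Q111 and by -0.21 in the knock-out. The list medians lay between -0.14 and 0.19 over the 5 comparisons. With 3 of the arrays these small counts moved: replicates 1 to 3 alone gave 2 higher and 2 lower in the knock-out, and control replicates 4 to 6 alone gave 1 and 1 in Q111. Lif itself and the receptor genes Cntfr, Osmr and Il6ra did not reach the level for testing.

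The BMP ligand Bmp4 had 1 probe set, 1422912_at. Its values were 8.82, 8.61 and 8.86 in Q20, 9.28, 8.999 and 11.84 in Q50, 8.17, 10.20 and 9.79 in Q91, and 8.13, 7.73 and 8.73 in Q111 arrays. Knock-out arrays ran from 11.01 to 11.97 (median 11.69), and control arrays from 9.77 to 10.93 (median 10.69). All Q20 and Q111 arrays lay below all controls and all knock-out arrays above them, while Q91 overlapped the controls and Q50 held 1 array above and 2 below all of them. Of all tested probe sets, 10.4% in Q20 and 9.82% in Q111 lay wholly below the controls, and 5.44% in the knock-out wholly above. Bmp4 fell by 1.69 in Q20 (SE 0.48, limma adjusted p = 0.0146) and fell by 2.25 in Q111 (SE 0.48, limma adjusted p = 0.00186), or 3.22-fold and 4.77-fold lower. Q91 differed by -1.07 (limma adjusted p = 0.125) and Q50 by -0.41 (limma adjusted p = 0.645). Without Q50 replicate 3, the array with the high Actb difference, Q50 differed by -1.31 (limma adjusted p = 0.0607). The Q20 call was lost with control replicates 4 to 6 alone (-1.43, limma adjusted p = 0.123) and without Q20 replicate 2.

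In the knock-out Bmp4 differed from control by 1.16 (SE 0.40), with an adjusted p of 0.0539 in the limma fit of all groups and 0.00368 in a limma fit of the knock-out and control arrays alone. With replicates 1 to 3 of both groups the difference was 0.87 (limma adjusted p = 0.00387) and with replicates 4 to 6 it was 1.44 (limma adjusted p = 0.073). After subtraction of the chromosome 14 median it was 0.72 (limma adjusted p = 0.231). Against the lines directly, the knock-out was higher by 2.84 than Q20, 1.57 than Q50, 2.22 than Q91 and 3.41 than Q111 (limma adjusted p = 0.000122, 0.0261, 0.00143 and 1.74e-05). Q50 and Q111 also differed from each other, by 1.84 (limma adjusted p = 0.0347), the 1 call among member probe sets for that pair, beside 13.3% of all tested probe sets. The other pairs of lines had 0 member calls, where 6.18% (Q20 and Q50), 0.901% (Q20 and Q91), 0.3% (Q20 and Q111), 2.93% (Q50 and Q91) and 0.451% (Q91 and Q111) of all probe sets were called.

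Bmpr1a, the type I receptor that binds BMP4, rose in the knock-out on all 4 tested probe sets. On 1425492_at knock-out arrays ran from 10.12 to 10.50 (median 10.46) and control arrays from 9.15 to 9.605 (median 9.49). The line arrays lay between 9.43 and 9.95, so the lowest knock-out array was above every other array of the study. Of all tested probe sets, 5.44% lay wholly above the controls in the knock-out. The share above the line arrays as well was not computed. The knock-out changes were 0.93, 0.73, 0.69 and 0.90 on 1425492_at, 1425493_at, 1425491_at and 1425494_s_at (limma adjusted p = 1.16e-05, 7.73e-05, 0.000192 and 2.53e-05), or 1.90-fold, 1.65-fold, 1.62-fold and 1.87-fold. In the lines no Bmpr1a probe set passed the test, and the changes ran between -0.14 and 0.35. With replicates 1 to 3 alone the knock-out changes were 0.70, 0.43, 0.46 and 0.59 and with replicates 4 to 6 alone 1.15, 1.02, 0.93 and 1.22, all past the threshold in the limma fits. The 2 Bmpr1a probe sets that were not tested stayed between 1.74 and 2.40 on all 24 arrays.

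Both Bmp4 and Bmpr1a lie on chromosome 14, whose 335 tested genes had a median deviation from the control mean of 0.32 to 0.54 in knock-out arrays and -0.24 to 0.13 in control arrays. The mean difference was 0.44 (two-sided exact permutation test, p = 0.00216, the smallest 6 against 6 arrays can give, adjusted p = 0.0379 over 35 tests). Knock-out arrays stood at 0.32 to 0.38 in replicates 1 to 3 and at 0.53 to 0.54 in replicates 4 to 6. Control arrays stood at 0.09 to 0.13 and at -0.24 to -0.03. The part of this split in the Bmpr1a changes by replicate set was not tested. With that median subtracted from each array, Bmpr1a differed by 0.49, 0.29, 0.25 and 0.46 in the knock-out, and 3 of the 4 probe sets passed (limma adjusted p = 0.00222, 0.0233, 0.0939 and 0.00157). After the subtraction 1425492_at also passed in Q20, Q91 and Q111, at 0.49, 0.52 and 0.43 (limma adjusted p = 0.00483, 0.0029 and 0.0107). Before it the changes were 0.32, 0.35 and 0.22, and none passed. The chromosome 14 median differed from control by -0.17, -0.17 and -0.20 in these lines. None of these differences passed (exact permutation p = 0.0952, 0.0952 and 0.0714, adjusted p = 0.303 each). On chromosome 11 the median of 801 genes differed from control by 0.45 in Q20 and 0.44 in Q111 (exact permutation p = 0.0119 each, the smallest 3 against 6 arrays can give, adjusted p = 0.104) and differed by -0.21 in the knock-out (exact permutation p = 0.00216, adjusted p = 0.0379). Q91 replicate 1 alone of its line was at 0.47 there, with -0.08 on both other Q91 arrays. Socs3 fell in Q20 and Q111, where this median was above control, and it fell as well in Q50, whose chromosome 11 median differed by -0.05 (exact permutation p = 0.548).

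**Figure D4:**
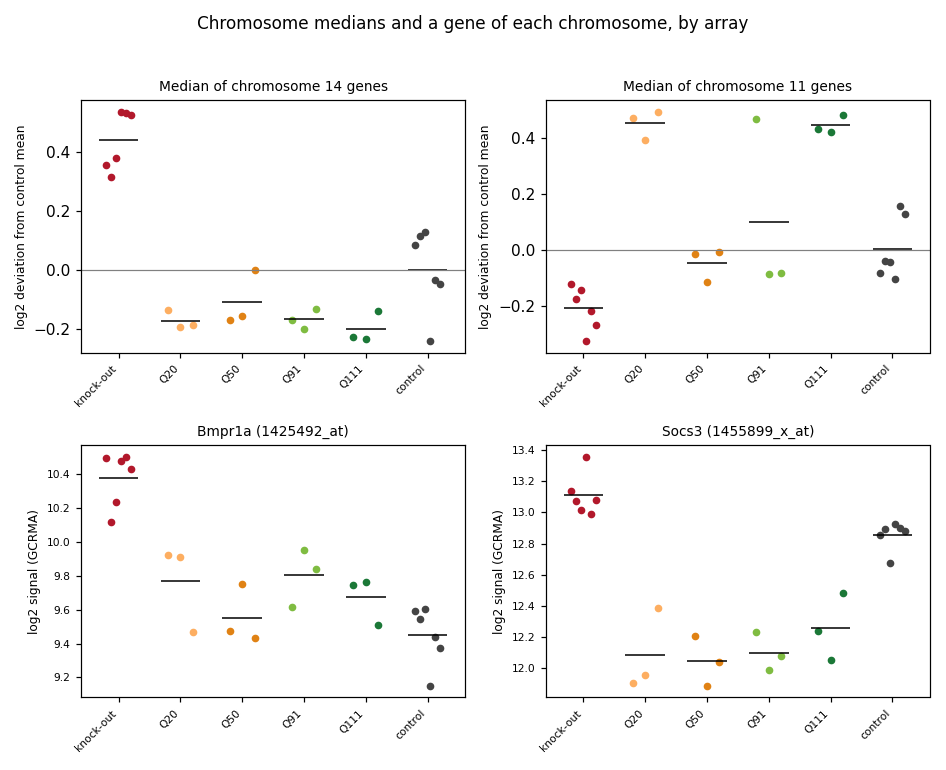
Upper panels show, for each array, the median log2 deviation from the control mean over the tested genes of chromosome 14 (left) and chromosome 11 (right); lower panels show the log2 signal of Bmpr1a on chromosome 14 and Socs3 on chromosome 11, with group means as lines. Knock-out arrays stand at 0.32 to 0.54 on chromosome 14 and are highest for Bmpr1a, while Q20 and Q111 arrays are high on chromosome 11 and low for Socs3.

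Of the other BMP ligands, receptors, SMADs and inhibitors, 14 of 23 listed were tested, and 0 were lower in any of the 5 comparisons. In the knock-out 1 was higher (7.55% of all 9504 genes), in Q20 4 (16.3%), in Q50 2 (5.08%), in Q91 4 (13.3%) and in Q111 4 (16.4%). Acvr1, a further type I receptor of the BMP family, rose by 1.00 in Q20, 1.08 in Q91 and 1.40 in Q111 (limma adjusted p = 0.02, 0.0141 and 0.00193). Bmpr2, the type II receptor, rose by 0.62 in the knock-out, 0.43 in Q20, 0.66 in Q91 and 1.07 in Q111 (limma adjusted p = 0.00168, 0.0376, 0.00277 and 3.34e-05). Smurf2, a ubiquitin ligase that marks SMADs and receptors for breakdown, rose by 1.04 in Q20 and 1.03 in Q111 (limma adjusted p = 0.000265 and 0.000237). Smurf2 lies on chromosome 11, whose median was 0.45 and 0.44 above control in these lines. Bmp8b, a ligand, rose by 1.99 in Q91 (limma adjusted p = 0.000906). The list medians were 0.19, 0.27, 0.15, 0.28 and 0.35 in the knock-out, Q20, Q50, Q91 and Q111, and with control replicates 1 to 3 or 4 to 6 alone Q50 had 0 higher and Q20 2.

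Id2, an inhibitor of helix-loop-helix factors, was higher in all 4 lines on both tested probe sets. On 1435176_a_at Q20 arrays had 13.01, 13.34 and 11.43, Q50 arrays 11.51, 12.84 and 11.87, Q91 arrays 12.25, 13.48 and 12.73, and Q111 arrays 12.25, 12.53 and 11.22. Knock-out arrays had 10.37, 10.74 and 10.75 in replicates 1 to 3 and 12.12, 11.67 and 11.44 in replicates 4 to 6, and control arrays had 10.52, 10.39 and 10.28 in replicates 1 to 3 and 9.10, 9.71 and 9.72 in replicates 4 to 6. Every line array was above every control array, as were 16.5% of all tested probe sets in Q20, 8.41% in Q50, 12.1% in Q91 and 17.6% in Q111, while the knock-out overlapped the controls in replicate 1.

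The Id2 changes were 2.64 in Q20, 2.12 in Q50, 2.86 in Q91 and 2.04 in Q111 on 1435176_a_at (limma adjusted p = 0.000345, 0.00725, 0.000148 and 0.00233), or 6.24-fold, 4.34-fold, 7.28-fold and 4.13-fold. The second Id2 probe set, 1422537_a_at, gave 2.93, 2.34, 3.20 and 2.22 (limma adjusted p = 0.00119, 0.0189, 0.000572 and 0.0082). Against control replicates 1 to 3 alone, the set with the higher Id2, the changes on 1435176_a_at were 2.20, 1.67, 2.42 and 1.60 (limma adjusted p = 0.00632, 0.0758, 0.00381 and 0.0327), so that Q50 no longer passed. On 1422537_a_at Q50 and Q111 did not pass against these controls (1.67 and 1.54, limma adjusted p = 0.159 and 0.0981). Both Q50 calls were lost without Q50 replicate 2, and the Q111 call on 1422537_a_at without Q111 replicate 2.

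In the knock-out Id2 was higher by 1.23 on 1435176_a_at (SE 0.37, limma adjusted p = 0.0297) and differed by 1.17 on 1422537_a_at (SE 0.48, limma adjusted p = 0.105). The call was lost without any 1 of knock-out or control replicates 4, 5 and 6, and with no filter on low values. On 1435176_a_at the difference was 0.23 in replicates 1 to 3 (limma adjusted p = 0.274) and 2.24 in replicates 4 to 6 (limma adjusted p = 0.00674), and on 1422537_a_at it was -0.31 and 2.65 (limma adjusted p = 0.231 and 0.00405). Compared directly, the knock-out differed from Q20 by -1.41 and from Q91 by -1.63 on 1435176_a_at (limma adjusted p = 0.0188 and 0.00874). The group means ran in the order Q91, Q20, Q50, Q111, knock-out and control, in which the limma test separated knock-out and control, and the 4 pairs of neighbours above them were not past the threshold. The Id2 probe set that was not tested, 1453596_at, had 5.09, 4.77 and 4.32 in knock-out replicates 4 to 6, 1.46, 1.39 and 1.45 in control replicates 4 to 6, and 2.71 to 3.05 on the other 18 arrays.

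Id1 (1425895_a_at), an early target of BMP signalling, passed no test over the whole groups, with changes of 0.62 in the knock-out, 0.63 in Q20, 0.94 in Q50, 0.83 in Q91 and 0.19 in Q111 (limma adjusted p = 0.276, 0.322, 0.195, 0.2 and 0.797). Within the knock-out and control groups Id1 fell into sets by replicate number. Knock-out arrays had 9.96, 10.26 and 10.10 in replicates 1 to 3 and 11.52, 11.33 and 11.22 in replicates 4 to 6, whereas control arrays had 10.70, 10.79 and 10.93 in replicates 1 to 3 and 9.70, 9.40 and 9.13 in replicates 4 to 6. The knock-out was thus below every control in replicates 1 to 3, with a difference of -0.70 (limma adjusted p = 0.00705), and above every control in replicates 4 to 6, with a difference of 1.95 (limma adjusted p = 0.00405). Such a turn of both sets without overlap was seen in 2.52% of all tested probe sets and in the reverse order in 1.16%, and among the 21 member probe sets Id1 was the 1 that had it. The labels do not say what sets replicates 1 to 3 apart from 4 to 6. With control replicates 4 to 6 alone, Q91 passed (1.53, limma adjusted p = 0.033). Line arrays of Id1 had 11.11, 11.12 and 9.996 in Q20, 10.35, 11.25 and 11.55 in Q50, 10.64, 11.18 and 10.99 in Q91, and 10.64, 10.70 and 9.54 in Q111, so that they spread across both control sets.

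**Figure D5:**
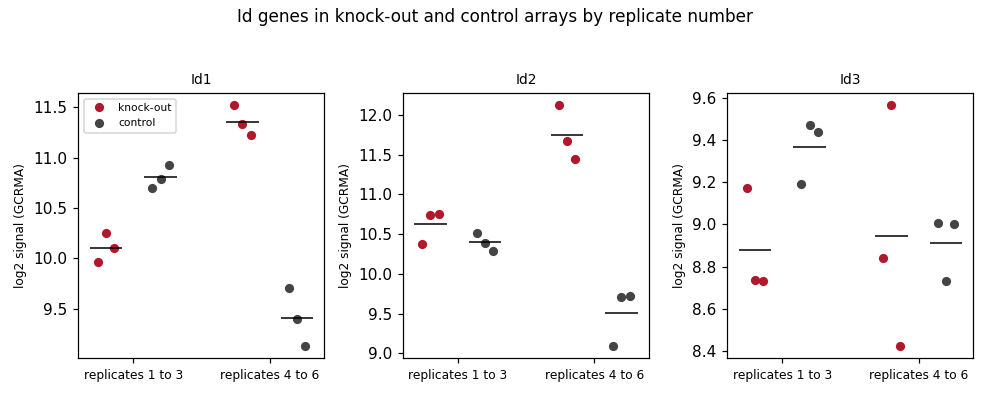
Log2 signal of Id1, Id2 (1435176_a_at) and Id3 in knock-out (red) and control (grey) arrays, split by replicates 1 to 3 and 4 to 6; each point is an array and each line the mean of 3. Id1 in the knock-out is below control in the left set and above it in the right set, and the Id2 gap widens in the right set as knock-out arrays are higher and control arrays lower there.

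Id3 (1416630_at), a further helix-loop-helix inhibitor under BMP control, was higher in Q20 by 0.75 (SE 0.27, limma adjusted p = 0.0438). Its Q20 arrays had 10.33, 10.03 and 9.32, and control arrays ran from 8.73 to 9.47 (median 9.10), so that Q20 replicate 3 lay among the controls. This call was lost in 6 of 10 alternatives, among them quantile normalization and control replicates 1 to 3 alone (0.52, limma adjusted p = 0.252), and in 6 of the 9 fits with 1 array left out. The Q91 arrays had 10.47, 9.88 and 9.20, the Q50 arrays 9.32, 9.76 and 9.13, the Q111 arrays 9.415, 9.55 and 9.81, and the knock-out arrays 8.425 to 9.56 (median 8.79), all groups that overlapped the controls. The change was 0.71 in Q91 (limma adjusted p = 0.0614), 0.45 in Q111 (limma adjusted p = 0.224), 0.27 in Q50 (limma adjusted p = 0.576) and -0.23 in the knock-out (limma adjusted p = 0.543). Compared directly, Id3 in the knock-out differed from Q20 by -0.98 and from Q91 by -0.94 (limma adjusted p = 0.00669 and 0.0104).

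Among the BMP targets other than Id1 to Id3, 2 of 6 listed were tested, and Id4, the remaining member of the Id family, rose by 0.84 in the knock-out (limma adjusted p = 0.00624), with a mean of 5.35 ± 0.37 in knock-out arrays against 4.52 ± 0.41 in control arrays (SD, n = 6 each). Only the knock-out mean of Id4 reached 5, the level for testing, and the line means were 3.95 to 4.52. The filter thus favoured the group in which Id4 was high, and its other values lay near the floor. In the 4 lines Id4 and the phosphatase gene Dusp9 passed no test. Of the helix-loop-helix partners of Id proteins, 4 of 9 listed were tested. Tcf12, an E-protein, rose by 0.45 in the knock-out, 0.63 in Q91 and 0.73 in Q111 (limma adjusted p = 0.037, 0.012 and 0.004), and Tcf3, Tcf4 and Ascl2 passed in none of the 5 comparisons. Of all 9504 genes, 7.55% were higher in the knock-out, 13.3% in Q91 and 16.4% in Q111.

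Whether members followed the repeat number of the knock-in alleles was asked over the lines alone. Over the 12 knock-in arrays 0 of 21 member probe sets had a slope past the threshold, where 0.0445% of all tested probe sets had one (0.0111% upward, 0.0334% downward), and 0 differed among the 4 lines by the limma F-test, beside 0.167% of all. At an unadjusted p under 0.05 the 1 member found in either test was Lifr on 1425107_a_at, at -0.66 per 100 repeats (SE 0.27, limma adjusted p = 0.985), with an adjusted p of 0.258 in the limma F-test. Socs3 on 1455899_x_at changed by 0.17 per 100 repeats (SE 0.16, limma adjusted p = 0.985). Id2 on 1435176_a_at changed by -0.24 per 100 repeats (SE 0.56, limma adjusted p = 0.99) and Bmp4 by -0.75 (SE 0.80, limma adjusted p = 0.985). At 4 lines of 3 arrays, repeat number and line cannot be told apart, and a p that misses the threshold does not show that the lines are alike.

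Over the 24 arrays, which mix all groups, the gene most like Socs3 in its pattern was Klf4 (Pearson r = 0.95 among 9503 genes), followed by Dnpep (r = 0.94). Bmp4 was most like Tiparp (r = 0.96) and Tcf15 (r = 0.95), and Id2 most like Nsmaf and Rnd3 (r = 0.91 each). Id1 lay closest to Mknk2 (r = 0.91), Id3 to Tmem185a (r = 0.90), Lifr to Ash2l (r = 0.92) and Bmpr1a to Pspc1 (r = 0.90). Il6st and Stat3 had their closest genes at r = 0.74 (Srsf5) and r = 0.78 (Copa). Between members, r was 0.69 for Socs3 and Bmp4, -0.73 for Socs3 and Id2, and 0.69 for Id1 and Id2. These values describe arrays that share groups and controls.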

How the data were processed

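RNA of 24 samples (knock-out 6, Q20, Q50, Q91 and Q111 3 each, control 6) was measured on 1-colour arrays. The authors deposited log2 values of 45101 probe sets per array made with GCRMA, per the submitters' processing notes; the sources used here name neither the GCRMA version nor the chip definition file, nor say if the arrays were normalized in 1 run. GCRMA corrects background, normalizes arrays to each other and summarises probes, so levels of different probe sets are not comparable. Values ran from -0.18 to 17.19, which fits a log2 scale. Titles, group and genotype labels set the groups; the description field gives control and knock-out the other way round.

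The 64 AFFX probe sets were left out, and 17980 probe sets (39.9%) that reached 5 (log2) on 3 arrays were tested. A limma fit (version 3.58.1, R 4.3.3) of 6 group means on all 24 arrays, with 18 residual degrees of freedom, gave each group against control and each pair of groups. The 12 knock-in arrays gave the slope on repeat number and an F-test. Tests were two-sided, and p-values were adjusted over all tested probe sets (Benjamini-Hochberg) at a threshold of 0.05. Chromosome medians were compared by exact permutation. Genes came from GEO's platform annotation, chromosomes and promoters from RefSeq GRCm38.p6. For lists, the probe set with the highest mean stood for a gene, and the genes with the smallest p were named. For likeness, the 2 genes with the highest r were kept for each member. Alternatives were median centring, quantile normalization, other filters, an intensity trend, subtraction of chromosome medians, a replicate block, fits of 2 groups, subsets of replicates and leaving out each array; fits against 3 of the controls were added after their values were seen. The code was tested on simulated data. The number of arrays limits the precision. Members and gene lists were chosen with earlier results of these data known.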

Additional observations from a re-analysis of the deposited data

Results flagged for a closer look

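In a group of 6 arrays, a single array stood apart by Dixon's criterion in 3 of the 42 groups looked at, and chance marks about 1 in 20 groups. Control replicate 4 was low for Lifr on 1454984_at, at 10.23 beside 10.61 to 10.83 on the other control arrays. The same array was low for Il6st on 1460295_s_at, at 8.62 beside 9.23 to 9.49. Its median over the genes of chromosome 15, where Lifr lies, was -0.11, and over those of chromosome 13, where Il6st lies, -0.15. The other control arrays lay between -0.01 and 0.05 on both, so the low values were not limited to these genes. Nor were they limited to these chromosomes. Control replicate 4 was also the lowest control on chromosomes 2, 4, 11, 12 and 14, at -0.24 to -0.09. Control replicate 3 was low for Socs3 on 1455899_x_at, at 12.67 beside 12.85 to 12.93.

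The Id1 difference between knock-out and control turned round between the sets of replicates. It was -0.70 in replicates 1 to 3 and 1.95 in replicates 4 to 6, and every array of each set moved its own way. This difference between the sets was not tested.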

How the results depend on the processing

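The number of member probe sets called stayed within 1.5 times the main count, with 2 exceptions among the alternatives: 8 in the knock-out when only the knock-out and control arrays were fitted (5 in the fit of all groups), and 3 in Q50 with control replicates 1 to 3 alone (5 with all controls), an alternative chosen after seeing the data. Over the alternatives the knock-out had 5 to 8 calls, Q20 6 to 9, Q50 3 to 5, Q91 6 to 8 and Q111 6 to 10. With 1 array left out the knock-out had 4 to 5, Q20 5 to 8, Q50 3 to 5 (3 without Q50 replicate 2), Q91 5 to 8 and Q111 5 to 7, and the slope and the F-test had 0. For the 31 calls of the main fit, 288 values kept their direction and call under an alternative and 21 lost the call. With 1 array left out 269 kept it and 25 lost it. None of these values changed direction. Values that were not called in the main fit are not among them, and some did change direction. In the knock-out, Id1 went from 0.62 to -0.70 with replicates 1 to 3 alone, and Id2 on 1422537_a_at from 1.17 to -0.31.

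The correlation of the deviations of samples with the same replicate number was -0.409 to -0.26 between knock-out and control (0 of 6 pairs over 0.1), -0.105 to 0.132 between lines and control (2 of 12 over 0.1) and -0.282 to 0.464 between lines (13 of 18 over 0.1). Not every pair was over 0.1 and the labels name no shared source, so the numbers were not taken to pair the samples. With the replicate block the counts were 5 in the knock-out, 6 in Q20, 5 in Q50, 6 in Q91, 6 in Q111 and 0 for the slope and the F-test, and 3 named values were not past the threshold: Lifr 1454984_at in Q91 (-0.45, limma adjusted p = 0.0697) and in Q111 (-0.40, limma adjusted p = 0.0917), and Id3 in Q20 (0.65, limma adjusted p = 0.121). Probe sets near background, such as the 5 not tested, limit what can be said of weak transcripts.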
